A study of Mus musculus with 8 samples.

Results

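The genes described are those of the astrocyte intermediate filament network, namely Gfap, Vim, Nes and Synm, which encode the filament subunits glial fibrillary acidic protein, vimentin, nestin and synemin, and Plec, which encodes the linker plectin. They were taken by name from the table of read counts, where they stand in capitals as GFAP, VIM, NES, SYNM and PLEC, and all 5 were present among its 13937 genes and among the 13509 genes tested. The libraries were bulk RNA sequencing of primary brain astrocytes from C57BL/6 pups on postnatal day 1, either wild type (WT) or RGC-32 knock-out (RGC-32 KO), RGC-32 being the protein of the gene Rgcc. All cultures were kept in serum, shaken to remove loosely attached cells and starved of serum overnight. They were then left untreated (control) or exposed to TGF-β at 10 ng/ml, over 24 h, so that each genotype had a control and a TGF-β group (4 groups in all) of 2 biological replicates each. How many pups gave each culture is not given in the sources used here.

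Intermediate filaments are rope-like polymers that give a cell mechanical strength. In astrocytes vimentin and glial fibrillary acidic protein can form the filament backbone, while nestin and synemin, with their long tails, join it only together with such a partner. Plectin is a very large cytolinker that ties the filaments to actin, microtubules and integrin adhesions. Vimentin and nestin are abundant in radial glia and immature astrocytes, glial fibrillary acidic protein marks mature and reactive astrocytes, and a stronger filament network is a hallmark of the glial scar.

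The mRNA of Vim fell with TGF-β in both genotypes (log2 fold change -0.50 in WT and -0.51 in knock-out astrocytes). In WT astrocytes the mRNAs of Nes and Plec rose, by 0.50 and 0.58 on the log2 scale, while Gfap and Synm did not pass the test. In RGC-32 KO astrocytes Vim was the single gene of the 5 that passed. No gene of the 5 differed between the genotypes past the test, with or without TGF-β, and none had an interaction of genotype and TGF-β past it. With DESeq2, the program behind the gene lists of the paper, the genotypes differed after TGF-β in Gfap and Plec (adjusted p = 0.00513 and 0.0315). A change passed the test at an adjusted p under 0.05 in edgeR's quasi-likelihood test, with the Benjamini-Hochberg adjustment over all genes tested. A gene that also moved by 0.6 or more on the log2 scale (a fold of 1.52) is called a differentially expressed gene (DEG). By that stricter rule, 0 of the 5 genes were DEG in any comparison, where DEG made up 13.4% and 11.5% of all genes tested in the WT and knock-out responses, 0.037% and 0.0444% between the genotypes without and with TGF-β, and 0% for the interaction. For the genotypes and the interaction, 0 of 5 is thus near the share over all genes. For the WT and knock-out responses, 5 genes are too few to tell 0 from 13.4% or 11.5%.

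Total counts ran from 14920561 to 18956038 per library, and replicates of a group differed by more than counting noise. For Rgcc, the targeted gene, WT cultures gave 80 and 94 counts untreated and 215 and 362 with TGF-β, and RGC-32 KO cultures 61 and 28 untreated and 64 and 26 with TGF-β. All knock-out libraries were therefore below all WT libraries, and none was at 0. Rgcc differed between RGC-32 KO and WT by -0.97 on the log2 scale without TGF-β (SE 0.53, adjusted p = 0.78 in edgeR). With TGF-β the difference was -2.54 (SE 0.48, adjusted p = 0.133 in edgeR). Neither passed the test over all genes. All 10 markers of astrocytes were above 1 FPKM in at least 1 library of each group. FPKM are the Cufflinks values deposited by the authors, scaled to transcript length and library size. Near 0 they repeat across groups: the keratin gene Krt5 had the same mean, 0.000352 FPKM (SD 9.93e-05), in every group but RGC-32 KO control. Whether the values were altered after Cufflinks was not tested.

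Compared per transcript length, the levels of the 5 genes kept 1 order in all 8 libraries. Vim was highest, at 1834 to 3452 FPKM, followed by Gfap at 353 to 874, Nes at 80.0 to 110, Plec at 12.9 to 24.0 and Synm at 7.70 to 9.70. These ranges do not overlap, though Plec and Synm lay close, at 12.9 FPKM for the lowest Plec and 9.70 for the highest Synm library. Vim ranked at position 4 or 5 of 18644 genes in the control libraries and at positions 8 to 10 after TGF-β. Gfap ranked between positions 31 and 64 in the controls and between 47 and 123 after TGF-β. The read counts behind these levels were between 64426 and 116837 for Vim and between 943 and 1496 for Synm.

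**Figure D1:**
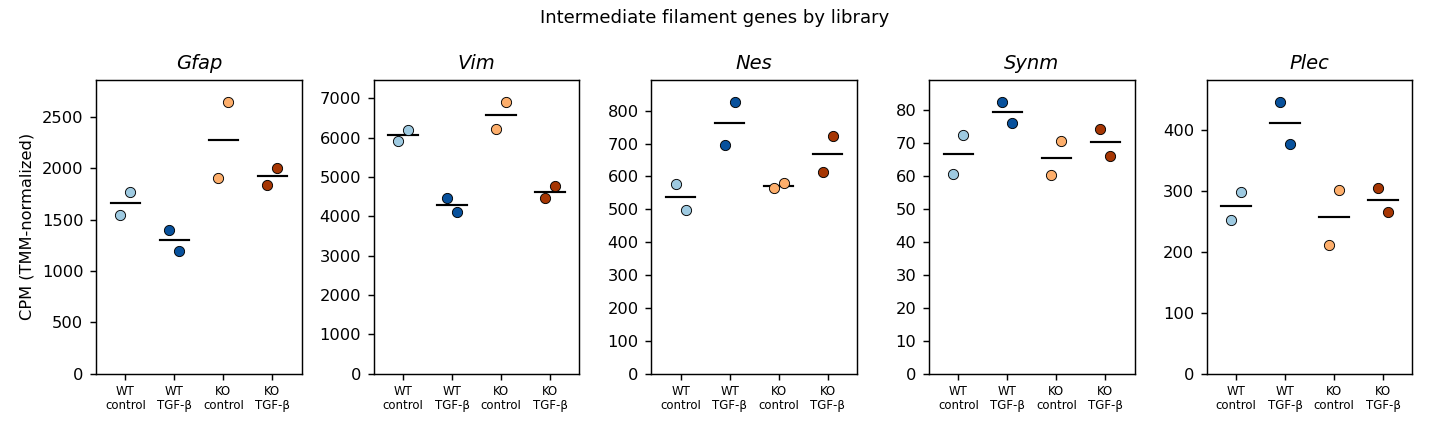
CPM of Gfap, Vim, Nes, Synm and Plec (vertical axes, each from 0) in each library of the 4 groups, with points for the 2 replicates and a line at their mean. The TGF-β libraries of Vim lie below the control libraries in both genotypes, and the WT TGF-β libraries of Nes and Plec lie above the WT control libraries.

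Vim lies on chromosome 2 (chr2:13573927-13582826, plus strand, GRCm38), and its longest coding transcript has 9 exons and 2193 bases. The WT libraries held 5918 and 6202 CPM untreated and 4474 and 4120 with TGF-β, and the knock-out libraries 6211 and 6916 untreated and 4467 and 4777 with TGF-β. CPM are read counts scaled to a common library size, here after TMM normalization. In each genotype both TGF-β libraries were below both control libraries. The fall was 1.41-fold in WT astrocytes (log2 fold change -0.50 with SE 0.10, adjusted p = 0.0081 in edgeR) and 1.42-fold in the knock-out (-0.51 with SE 0.10, adjusted p = 0.00893). The difference of the responses was -0.01, with a 95% interval from -0.34 to 0.32. With 2 libraries in a group these p-values rested on single libraries, since the adjusted p was 0.058 without WT TGF-β replicate 2, while for the knock-out it was 0.0548 when control replicate 2 and 0.0654 when TGF-β replicate 1 was left out. The log2 fold change stayed between -0.67 and -0.43 in every alternative of both comparisons. Where FPKM plus a pseudocount of 1 were compared, Vim was a DEG in both genotypes (-0.62 and -0.67), on a scale where the median of all genes was itself at -0.11 in each.

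Nes lies on chromosome 3 (chr3:87971078-87980451, plus strand), and its longest coding transcript has 4 exons and 6126 bases. The WT libraries held 576 and 499 CPM untreated and 697 and 828 with TGF-β, and the knock-out libraries 564 and 580 untreated and 614 and 722 with TGF-β. Both TGF-β libraries were above both control libraries in each genotype. The rise was 1.42-fold in WT astrocytes (log2 fold change 0.50, SE 0.12, adjusted p = 0.0139 in edgeR). In RGC-32 KO astrocytes the value was 0.23 (SE 0.12, adjusted p = 0.185), which did not pass. The interaction was -0.28, with a 95% interval from -0.66 to 0.10 (unadjusted p = 0.129 in edgeR), so a weaker response of Nes in knock-out astrocytes was not shown. Over the alternatives it lay between -0.42 (knock-out TGF-β replicate 2 left out) and -0.14 (WT TGF-β replicate 2 left out), and the knock-out response of Nes between 0.082 and 0.34. The call in WT was lost without WT control replicate 2 (adjusted p = 0.093) and without WT TGF-β replicate 2 (0.108).

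The promoters of Vim and Nes are shown because these 2 genes moved in opposite directions in the same WT cultures. RefSeq (GRCm38.p6) holds such a window for 4 of the 5 genes, covering 250 bases before and 50 bases after a transcription start site on the gene's strand, which for both is the plus strand. The Vim window lies inside the gene span given above, so its start site is not the first base of that span. Capitals mark matches, read on either strand, to the CCAAT box (its letters are CCAAT), to a TATA box written TATAAA and to the core that SMAD proteins, the transcription factors activated by TGF-β receptors, can bind, which is CAGAC.
Vim, chr2:13574061-13574360: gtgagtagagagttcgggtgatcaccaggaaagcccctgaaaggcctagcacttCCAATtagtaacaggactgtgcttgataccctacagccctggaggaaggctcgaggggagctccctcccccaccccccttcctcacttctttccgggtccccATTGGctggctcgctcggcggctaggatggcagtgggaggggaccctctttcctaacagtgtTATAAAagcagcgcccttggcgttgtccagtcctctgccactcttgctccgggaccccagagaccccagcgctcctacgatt
Nes, chr3:87970843-87971142: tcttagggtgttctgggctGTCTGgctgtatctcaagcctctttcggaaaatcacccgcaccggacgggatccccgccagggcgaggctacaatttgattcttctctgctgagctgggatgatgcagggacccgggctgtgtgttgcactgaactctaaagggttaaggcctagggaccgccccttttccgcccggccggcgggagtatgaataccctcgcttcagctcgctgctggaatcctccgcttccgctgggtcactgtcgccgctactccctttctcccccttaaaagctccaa
The Vim window holds TATAAA starting 32 bases before the start site, CCAAT 196 bases before it and the reverse form ATTGG 94 bases before it, and no CAGAC. The Nes window holds the reverse form GTCTG, 231 bases before the start site, and neither TATAAA nor CCAAT. Of the 32851 promoter windows in that table, 13.6% hold TATAAA, 37.4% CCAAT and 49.6% CAGAC in either direction. The AP-1 site TGANTCA, held by 7.81% of them, is not in the window of any of the 4 genes. The Synm window holds ATTGG 78 bases before its start, and that of Gfap holds none of the 4 motifs.

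Plec lies on chromosome 15 (chr15:76170974-76232574, minus strand), spans 61601 bases and has 22 annotated transcripts, of which the longest coding one measures 15455 bases in 33 exons. The counts are per gene, so its isoforms were not told apart, and 205 exon bases are shared with Parp10 on the same strand. The WT libraries held 253 and 299 CPM untreated and 448 and 378 with TGF-β, and the knock-out libraries 211 and 303 untreated and 306 and 266 with TGF-β. Both WT TGF-β libraries were above the 6 others, while the groups of RGC-32 KO overlapped. The rise in WT was 1.5-fold (log2 fold change 0.58 with SE 0.17, adjusted p = 0.035 in edgeR), and the knock-out value was 0.15 (SE 0.17, adjusted p = 0.542). The interaction was -0.43, with a 95% interval from -0.99 to 0.13 (unadjusted p = 0.116 in edgeR), and moved to -0.15 when knock-out control replicate 2 and to -0.67 when replicate 1 of that group was left out. The call in WT was lost with upper quartile normalization (adjusted p = 0.0588), on both Cufflinks settings (0.0866 and 0.0895) and without any 1 of the WT libraries (0.0594 to 0.147).

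The longest coding transcript of Plec exceeds 10 kb, and in these libraries the differences of genes moved with transcript length, known for 94.8% of the genes tested. Over the 343 tested genes with a coding transcript over 10 kb, the median log2 fold change of TGF-β was 0.28 in WT and 0.10 in knock-out astrocytes. For the 2902 genes up to 2 kb it was -0.07 and -0.02. Between the genotypes after TGF-β, genes over 10 kb had a median of -0.24 and genes up to 2 kb one of 0.06. Nes and Synm fall in the class of 5 to 10 kb, where the median was 0.11 in the WT response. Between the replicates of RGC-32 KO control the medians also differed with length, from -0.11 up to 2 kb to 0.18 over 10 kb (replicate 2 minus 1), and Plec differed there by 0.52 on the log2 scale. The part of transcript length in the values of Plec, Nes and Synm was not tested.

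**Figure D2:**
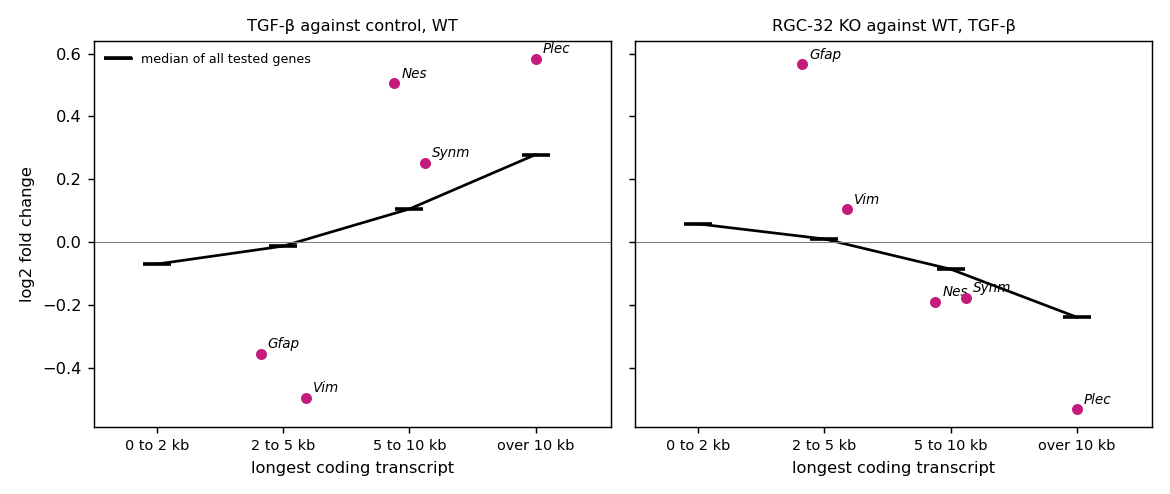
Log2 fold change (vertical axis) of TGF-β against control in WT astrocytes (left) and of RGC-32 KO against WT after TGF-β (right), by the length of the longest coding transcript in 4 classes. Black marks joined by a line are medians of all tested genes and points are the 5 genes. The medians run from -0.07 to 0.28 on the left and from 0.06 to -0.24 on the right, with Plec beyond the median of its class in both.

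Gfap lies on chromosome 11 (chr11:102887336-102900912, minus strand), and its longest coding transcript has 9 exons and 2648 bases. The WT libraries held 1548 and 1771 CPM untreated and 1398 and 1196 with TGF-β, and the knock-out libraries 1903 and 2650 untreated and 1834 and 2007 with TGF-β. The log2 fold change with TGF-β was -0.36 for WT cells (SE 0.16, adjusted p = 0.127) and -0.25 for knock-out cells (SE 0.16, adjusted p = 0.287), in edgeR, and neither passed. DESeq2 gave the same size in WT with an adjusted p of 0.0332, in a range from 0.0332 to 0.411 over all alternatives. In RGC-32 KO, leaving out control replicate 2, the library with the highest value, turned the sign (0.01), and leaving out control replicate 1 gave -0.48 (adjusted p = 0.0481). Each RGC-32 KO library was above each WT library of the same treatment. RGC-32 KO exceeded WT astrocytes by 0.46 on the log2 scale without TGF-β (95% interval 0.08 to 0.83, adjusted p = 0.675 in edgeR) and by 0.57 with it (0.19 to 0.94, adjusted p = 0.25). Neither passed the test over all genes. The first value was 0.20 when knock-out control replicate 2 was left out and 0.68 when its replicate 1 was. With DESeq2 the second of these had an adjusted p of 0.00513, and over all alternatives it ran from 0.00513 to 0.879.

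Synm lies on chromosome 7 (chr7:67730160-67759742, minus strand), and its longest coding transcript has 4 exons and 7818 bases. Since the reads were unstranded and 426 of its exon bases also belong to Gm45102 and 84 to Ttc23, both on the other strand, reads there cannot be assigned to 1 gene. The WT libraries held 60.8 and 72.5 CPM untreated and 82.7 and 76.2 with TGF-β, and the knock-out libraries 60.2 and 70.9 untreated and 74.4 and 66.1 with TGF-β. The WT groups did not overlap and those of RGC-32 KO did. The log2 fold change was 0.25 for WT cells (SE 0.11, adjusted p = 0.121) and 0.10 for knock-out cells (SE 0.11, adjusted p = 0.544), in edgeR.

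Counted over the 5 genes, 2 rose and 1 fell with an adjusted p under 0.05 in WT astrocytes, where 32.9% of all genes tested had one, 18.6% upward and 14.3% downward. In RGC-32 KO astrocytes 1 fell and none rose, against 28.4% of all genes, 16.6% upward and 11.8% downward. DEG made up 13.4% of the genes tested in WT (7.72% upward, 5.65% downward) and 11.5% in RGC-32 KO cells (6.61% upward, 4.93% downward), against 0 of the 5 genes in each. The TGF-β and control libraries did not overlap for 5 of the 5 genes in WT, 3 higher and 2 lower, against 69.1% of all genes (35.4% higher, 33.7% lower). They did not overlap for 2 of the 5 in the knock-out, Nes being higher and Vim lower, against 67.3% (34.3% higher, 32.9% lower). The median log2 fold change of the 5 genes was 0.25 in WT and 0.10 in knock-out astrocytes, with medians over all genes of -0.00 and 0.00. Of all DEG, 57.8% were upward in WT and 57.3% in knock-out astrocytes. These shares became 44.8% and 45.5% with upper quartile normalization, 46.6% and 44.2% when FPKM plus a pseudocount of 1 were compared, and 37.5% and 36.2% for a pseudocount of 0.1.

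**Figure D3:**
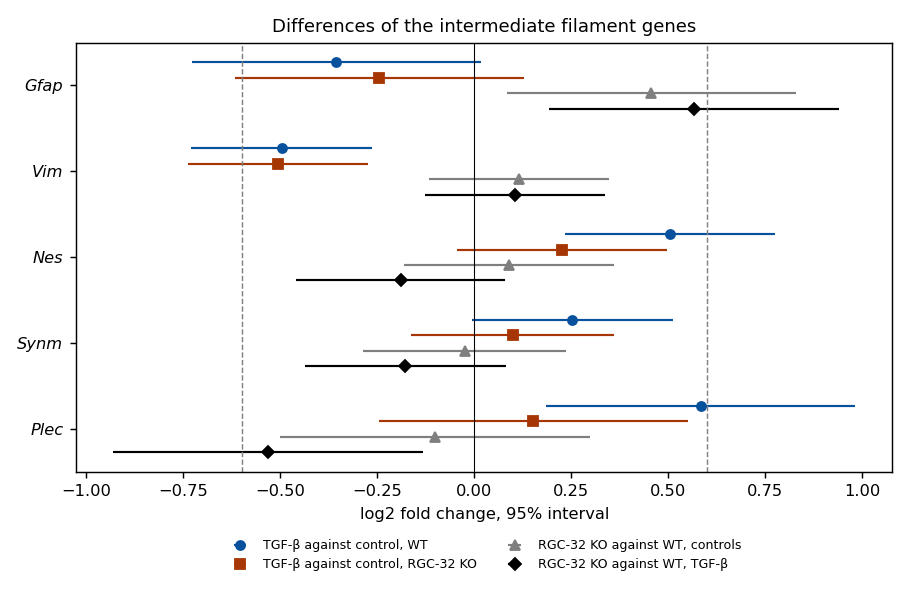
Log2 fold changes (horizontal axis) of the 5 genes with 95% intervals as bars, for TGF-β against control in each genotype and for RGC-32 KO against WT in each treatment, with dashed lines at -0.6 and 0.6. For Vim the WT and RGC-32 KO responses lie at -0.50 and -0.51, and for Plec the WT response lies at 0.58 and the RGC-32 KO response at 0.15.

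Between the genotypes, Vim differed by 0.12 without TGF-β and by 0.11 with it on the log2 scale (RGC-32 KO minus WT), with 95% intervals from -0.12 to 0.35 and from -0.13 to 0.34. Differences of Nes were 0.09 and -0.19, and those of Synm -0.02 and -0.18. For Plec the difference was -0.10 without TGF-β (95% interval -0.50 to 0.30) and -0.53 with it (-0.93 to -0.13, adjusted p = 0.307 in edgeR). After TGF-β both RGC-32 KO libraries of Plec were below both WT libraries. DESeq2 gave the second value of Plec an adjusted p of 0.0315, in a range from 0.0315 to 0.931 over all alternatives. Libraries did not overlap for 2 of the 5 genes without TGF-β (Gfap and Vim, both higher in RGC-32 KO), against 32.8% of all genes, 15.5% higher and 17.4% lower. With TGF-β they did not for 3 (Gfap higher, Synm and Plec lower), against 46.3%, 23.9% higher and 22.4% lower. At an unadjusted p under 0.05 stood 1 of the 5 without TGF-β (Gfap), against 6.84% of all genes, and 2 with it (Gfap and Plec), against 11.7%. Over all genes, 5 were DEG without TGF-β (0.037%, the same share at an adjusted p alone) and 6 with it (0.0444%, or 0.0518% at an adjusted p alone). For the interaction edgeR called 0 genes, with 381 at an unadjusted p under 0.05 (2.82%). That number was 76 with DESeq2, 680 with crossed replicate numbers, 857 when knock-out control replicate 1 was left out and 190 when knock-out TGF-β replicate 2 was, and no setting called a gene.

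As a share of the summed FPKM of Gfap, Vim, Nes and Synm, Gfap made up 14.2% and 15.4% in untreated and 17.3% and 15.3% in treated WT cultures, and 16.6% and 19.7% in untreated and 21.1% and 21.0% in treated knock-out cultures. The difference between TGF-β and control, averaged over the genotypes, was 2.17 percentage points (p = 0.111, two-sided exact permutation test within genotypes). It was 1.39 points when knock-out control replicate 1 was left out and 2.96 when replicate 2 of that group was. The smallest p that the 36 arrangements allow is 0.0556, so this design cannot reach 0.05. Vim held 83.0% and 82.2% in WT control and 78.4% and 79.5% in WT TGF-β, and its share differed by -3.97 points (exact permutation p = 0.0556). In RGC-32 KO the share of Vim was 81.0% and 78.0% in the controls and 75.2% and 75.1% after TGF-β. Nes held 2.17% to 2.51% in WT control and 3.92% to 4.77% in WT TGF-β, and over both genotypes its share differed by 1.67 points (exact permutation p = 0.0556). The shares of Vim and Nes thus did not overlap between treatments in either genotype, while those of Gfap overlapped in WT. Synm shares did not overlap either. Since Vim holds most of the sum, its fall by itself raises the shares of the other genes. A higher share is therefore not a higher level. Gfap had a lower mean FPKM after TGF-β, at 400 against 534 for WT and 578 against 755 for knock-out cells. Nes overlapped in the knock-out by FPKM, with 85.1 and 90.4 untreated beside 87.8 and 102 treated.

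**Figure D4:**
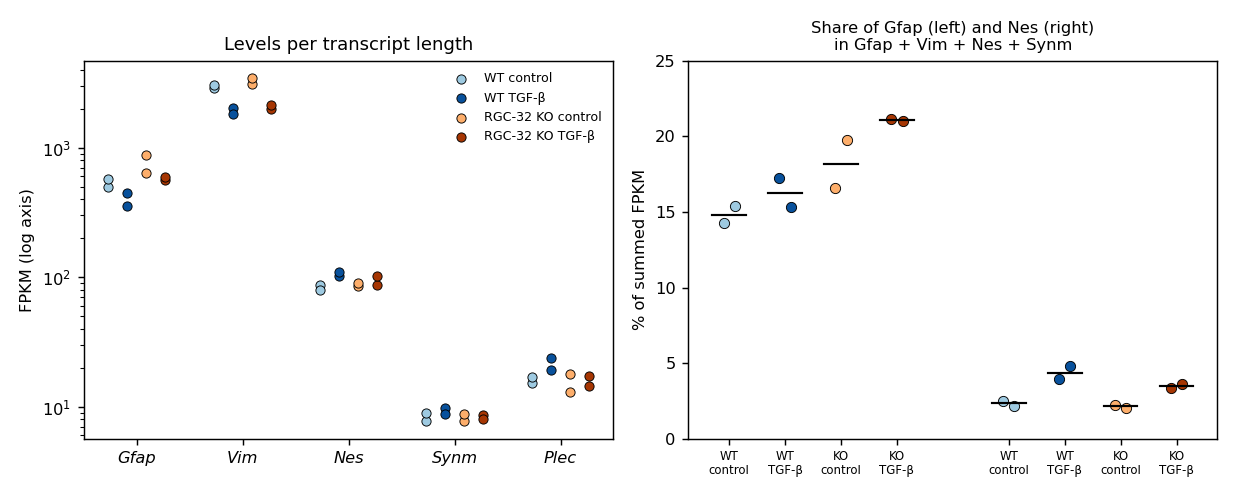
Left, FPKM (log axis) of the 5 genes in each library, coloured by group. Right, percent of the summed FPKM of Gfap, Vim, Nes and Synm held by Gfap and by Nes, with points for libraries and lines for group means. The 5 genes keep 1 order in every library, and both Nes shares of each TGF-β group lie above those of its control group.

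Partner genes were counted against shares over all genes tested of 7.72% DEG upward and 5.65% downward in WT, and 6.61% upward and 4.93% downward in the knock-out. Of 16 other cytoplasmic intermediate filament genes (neurofilaments, keratins, desmin and the like), 5 were tested, with no DEG in WT and 1, downward, in the knock-out. Among the other 11, Krt14 fell below the count filter and the rest had no row in the count table used here. Nefm, the medium neurofilament subunit, fell in knock-out astrocytes from 3.08 ± 0.424 to 0.930 ± 0.179 CPM (SD, n = 2), or a log2 change of -1.72 with SE 0.28 (adjusted p = 0.00389 in edgeR), on at most 53 counts in a library. In WT it went from 2.12 ± 0.291 to 1.29 ± 0.258 CPM (-0.72, adjusted p = 0.0758), and the interaction was -1.0 (unadjusted p = 0.0361, adjusted p = 1.00 in edgeR). Prph, Krt7, Krt19 and Sync, the other 4 tested, passed in neither genotype, and 14 of the 16 genes were below 1 FPKM in both WT control libraries.

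Of 10 genes of the nuclear lamina and of its anchors to the cytoskeleton, 2 were DEG upward and none downward in WT, and 1 in each direction in knock-out astrocytes (all genes: 7.72% upward and 5.65% downward, then 6.61% and 4.93%). Lmna, which encodes lamins A and C, the intermediate filaments of the nuclear envelope, rose from 245 ± 24.1 to 423 ± 37.0 CPM in WT (log2 fold change 0.79, adjusted p = 0.00169 in edgeR) and from 219 ± 10.0 to 384 ± 46.9 in knock-out astrocytes (0.81, adjusted p = 0.00187). Syne2, encoding nesprin-2, a giant anchor of the nucleus, rose by 0.92 in WT (adjusted p = 0.000889) and by 0.40 in the knock-out (adjusted p = 0.0336). Its interaction was -0.52 (unadjusted p = 0.0111, adjusted p = 1.00). Syne3, encoding nesprin-3, which binds plectin at the nucleus, changed by -0.76 in RGC-32 KO (adjusted p = 0.0444) and had -0.56 in WT (adjusted p = 0.0957). The call of Syne3 was lost in 9 of 19 alternatives, with an adjusted p of 0.213 when knock-out control replicate 2 and of 0.208 when knock-out TGF-β replicate 2 was left out. The median of the 10 genes was 0.18 in WT and 0.11 in knock-out astrocytes.

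Of 13 plakins and partners of plectin at the membrane, 4 were DEG in WT, all upward, and 1 upward with 2 downward in knock-out astrocytes, beside 7.72% upward of all genes in WT and 6.61% upward with 4.93% downward in the knock-out. Dsp, encoding desmoplakin, the plakin that ties filaments to desmosomes, rose from 1.98 ± 1.03 to 21.5 ± 4.73 CPM in WT (log2 fold change 3.45, SE 0.35, adjusted p = 0.00049 in edgeR). In RGC-32 KO astrocytes it rose from 2.27 ± 0.945 to 13 ± 2.41 CPM (2.52, SE 0.35, adjusted p = 0.00215), and the interaction was -0.93 (unadjusted p = 0.12). Evpl, encoding envoplakin, rose in WT from 10 and 5 counts to 26 and 27 (1.74, adjusted p = 0.0412). The WT call of Evpl was lost in 6 of 16 alternatives. These were DESeq2 (adjusted p = 0.106), the replicate number as a block (0.0697 in edgeR) and each WT library left out. In RGC-32 KO astrocytes Evpl went from 0.344 ± 0.235 to 1.19 ± 0.647 CPM. It was not a DEG there, but became one in 2 of 16 alternatives, so a response limited to WT was not shown. Ppl (periplakin) and Itgb4 (the integrin subunit that binds plectin) changed by -1.15 and -0.84 in knock-out astrocytes (adjusted p = 0.00906 and 0.0303) and had -0.46 and -0.69 in WT (adjusted p = 0.173 and 0.0525). Without knock-out TGF-β replicate 1 neither of these calls held (adjusted p = 0.0577 and 0.149), nor did that of Ppl without control replicate 2 (0.0537) or that of Itgb4 without control replicate 1 (0.131) or TGF-β replicate 2 (0.0821). In WT, Itgb4 was a DEG in 6 of 17 alternatives, where its log2 fold change ran from -0.93 to -0.41 over all 17. Dst (dystonin) and Itgb1 (the integrin β1 subunit), named after their values were seen, rose in WT by 0.63 and 0.64 (adjusted p = 0.00398 and 0.00343). In the knock-out Itgb1 rose as well, by 0.59 (adjusted p = 0.00573), which is inside the size limit, while Dst, like Plec a giant plakin of long transcript, had 0.21 (adjusted p = 0.176). In WT the DEG call of Dst was lost in 3 of 19 alternatives (upper quartile normalization and both Cufflinks settings, lowest 0.39) and that of Itgb1 in 5, which were the same 3 and those without WT control replicate 1 (0.57) or WT TGF-β replicate 2 (0.48), each with an adjusted p still under 0.05.

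Of 17 chaperones, kinases and other enzymes that act on intermediate filaments, 2 were DEG upward and 1 downward in WT, and 1 in each direction in knock-out astrocytes (all genes: 7.72% upward and 5.65% downward, then 6.61% and 4.93%). Hspb1, encoding the small heat shock protein HSP27, which binds intermediate filaments, rose from 50.6 ± 2.36 to 83.0 ± 10.9 CPM in WT (log2 fold change 0.71, adjusted p = 0.00565 in edgeR) and from 47.0 ± 6.36 to 91.2 ± 12.4 in knock-out astrocytes (0.96, adjusted p = 0.00212). Hspb8, of the same family, fell in WT by 0.85 (adjusted p = 0.00365) and in RGC-32 KO by 0.73 (adjusted p = 0.00763). Without WT TGF-β replicate 2 the value of Hspb1 in WT was 0.56, and without RGC-32 KO control replicate 2 that of Hspb8 in RGC-32 KO was -0.598, both inside the size limit. Prkca, encoding protein kinase C alpha, rose by 0.71 in WT (adjusted p = 0.000367) and by 0.56 in knock-out astrocytes (adjusted p = 0.00105).

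Nestin and vimentin are shared with radial glia, the stem cells of the developing brain, so 10 other radial glia and progenitor genes were listed. In WT 3 were DEG, all downward, and in knock-out astrocytes 2, also downward, beside 5.65% and 4.93% of all genes. Fabp7, a fatty acid binding protein of radial glia, fell from 171 ± 2.38 to 104 ± 4.65 CPM in WT (log2 fold change -0.72, adjusted p = 0.000566 in edgeR) and from 157 ± 5.45 to 113 ± 11.1 in knock-out astrocytes (-0.48, adjusted p = 0.00358). Hopx fell by 0.70 in WT (adjusted p = 0.0149) and by 0.55 in knock-out astrocytes (adjusted p = 0.0326), and its call in WT was lost without WT control replicate 2 (adjusted p = 0.0574) and without WT TGF-β replicate 1 (0.0949). Prom1, which encodes the stem cell surface protein prominin-1, fell in WT by 0.77 (adjusted p = 0.0203) and in RGC-32 KO by 0.61 (adjusted p = 0.05, just under the limit). The knock-out call of Prom1 was lost in 8 of 19 alternatives, with the smallest value, -0.29 (adjusted p = 0.262), when knock-out control replicate 2 was left out, and in WT its call was lost without control replicate 2 or either TGF-β library (adjusted p = 0.0525 to 0.104). Hes5, a Notch target, had at most 17 counts in a library, and its change of -1.95 in RGC-32 KO (adjusted p = 0.0303) was lost with DESeq2 (adjusted p = 0.153) and without any 1 of the RGC-32 KO libraries (0.06 to 0.175). In WT the value of Hes5 was -0.87 (adjusted p = 0.213). The median of these 10 genes was -0.45 in WT and -0.24 in knock-out astrocytes, while Nes lay at 0.50 and 0.23 and Vim at -0.50 and -0.51. None of the genes in the 5 partner lists was a DEG between the genotypes or for the interaction.

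**Figure D5:**
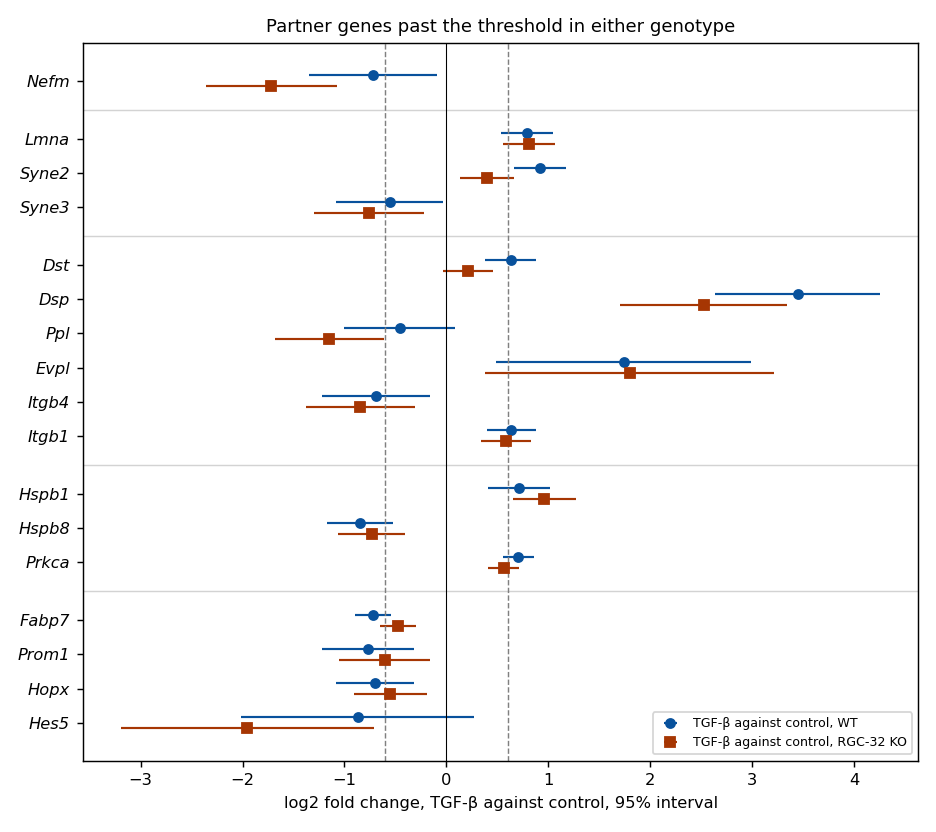
Log2 fold change of TGF-β against control (horizontal axis) with 95% intervals as bars, in WT (circles) and RGC-32 KO astrocytes (squares), for the 17 genes of the 5 partner lists that were DEG in at least 1 genotype. Grey lines part the lists and dashed lines mark -0.6 and 0.6. Dsp lies farthest to the right, at 3.45 in WT and 2.52 in the knock-out.

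In bulk RNA, fewer cells of a type and less RNA per cell cannot be told apart, and Vim and Nes are used by several cell types of such cultures. The paper reports that nearly all isolated cells were positive for glial fibrillary acidic protein. The summed FPKM of the 10 astrocyte markers was 775 to 798 in WT control and 575 to 593 in WT TGF-β, and 885 to 907 and 635 to 673 in the RGC-32 KO groups, with 2 of the 10 as DEG in each genotype, both downward. The 7 measured markers of smooth muscle and pericytes, which include contractile genes that other cells can switch on, summed to 1721 to 1822 FPKM in WT control and 3315 to 3569 in WT TGF-β, and to 1588 to 1691 and 3267 to 3432 in RGC-32 KO, with 4 of the 6 tested as DEG in each genotype, all upward. Of these 7, 3 (Kcnj8, Myh11 and Rgs5) stayed under 1 FPKM in every group. For the 10 markers of meningeal and perivascular fibroblasts the sums were 835 to 948 and 1241 to 1296 in WT, and 727 to 734 and 981 to 995 in RGC-32 KO, with 2 DEG upward and 2 downward in each genotype. Mean FPKM rose in both genotypes for Col1a1 (WT 189 to 426), Col1a2 (WT 195 to 376) and Igf2 (WT 308 to 346). It fell in both for the rest of this list, such as Dcn (WT 148 to 84.5) and Foxc1 (WT 36.5 to 25.1). Among the 9 fibroblast markers tested, the median log2 fold change was negative (WT -0.32, knock-out -0.17). These higher sums thus reflect a few genes. The paper places type I collagen synthesis downstream of TGF-β. The sums of the 6 ependymal markers were 153 to 178 and 87.9 to 103 FPKM in WT, and 167 to 186 and 108 to 113 in RGC-32 KO, with 5 and 2 DEG, all downward. For the 8 microglial markers they were 354 to 434 and 299 to 364 in WT, and 377 to 453 and 296 to 334 in RGC-32 KO, with 1 DEG upward in each. The 8 proliferation genes, none a DEG, summed to 142 to 147 and 116 to 122 in WT, and 144 to 146 and 114 to 118 in RGC-32 KO. Sums of the 8 oligodendrocyte lineage markers ranged from 88.6 to 97.8 and from 108 to 126 in WT, and from 87.0 to 103 and from 106 to 129 in RGC-32 KO, with 1 DEG in each direction in WT and 2 upward and 1 downward in RGC-32 KO. Neuron markers (6 measured) ranged from 83.8 to 88.3 and from 89.3 to 96.3 in WT, and from 72.3 to 92.8 and from 89.1 to 92.9 in RGC-32 KO, with 1 DEG upward in each. Endothelial markers (5 measured) had 1 DEG in WT and 2 in the knock-out, all downward, and their sums were 17.9 to 22.7 and 9.49 to 11 in WT, and 19 to 22.7 and 9.87 to 12.5 in RGC-32 KO. No marker of these lists was listed at 0 in a whole group. This says little for the lowest values, since Cldn5, an endothelial marker, had the same mean, 0.00137 FPKM (SD 0.00193), in every group but WT control. The part of these cells in the values of the 5 genes was not tested.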

How the data were processed

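Bulk RNA was sequenced from 8 libraries of cultured mouse astrocytes, 2 per group, with unstranded reads. The authors aligned reads with STAR (mm10, per their processing notes) and deposited raw read counts for 13937 genes and Cufflinks FPKM values for 18644. Versions and the counting program are not given in the sources used here. Fold changes and p-values of their own comparisons were also deposited and were not used.

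Genes were filtered with filterByExpr (13509 kept), normalized by TMM and fitted with edgeR 4.0.16 (R 4.3.3) by the quasi-likelihood test, with 1 mean for each of the 4 groups and the Benjamini-Hochberg adjustment. Alternatives used DESeq2 1.42.0 and limma 3.58.1 (voom, or log2 FPKM with a pseudocount of 1 or 0.1 over genes with at least 1 FPKM in 2 libraries), which understates the change of low genes. FPKM were used for levels between genes, and isoforms were not separated. Positions are from GENCODE M21 (GRCm38). The procedure was tested on simulated data.

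The 5 genes and all lists were chosen with earlier results of these data known, and 1 list gene is not reported here. Of each partner list at most 4 DEG were named, those of largest fold change, except that Dst and Itgb1 were added after their values were seen. For genes of the 5 that were DEG, the 3 genes of nearest profile were to be named, which applied to none. Nothing in the labels says how far the replicates share litters or culture days, so p-values measure the spread between these libraries.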

Additional observations from a re-analysis of the deposited data

How the results depend on the processing

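Under the 19 alternatives, 18 planned and 1 added after seeing the data, Vim was lower and Nes higher after TGF-β in both genotypes, and Plec and Synm were higher in WT. The number of the 5 genes that were DEG was 0 in the reported analysis, 1 in each genotype with Cufflinks values at either pseudocount (Vim), and 0 to 1 in WT with a library left out, Nes passing without WT control replicate 1 (0.61) and without WT TGF-β replicate 1 (0.63). The number with an adjusted p under 0.05 ran from 0 to 4 in WT (reported 3) and from 0 to 2 in RGC-32 KO (reported 1) with a library left out, the WT count being 0 when TGF-β replicate 2 was dropped and the RGC-32 KO count 0 when control replicate 2 or TGF-β replicate 1 was. It was 0 between genotypes after TGF-β, 2 with DESeq2 (Gfap and Plec) and 1 with crossed replicate numbers (Plec, 0.034).

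DEG over all genes numbered 1806 in WT, 1103 with Cufflinks values at a pseudocount of 1 and 1200 to 1790 with a library left out, the lowest without WT TGF-β replicate 2. In RGC-32 KO they numbered 1559, 1034 with Cufflinks values at that pseudocount and 1053 to 1592 with a library left out. Between control genotypes 5 became 13 with DESeq2, 2 with edgeR on 4 libraries and 0 to 3 with a library left out. After TGF-β 6 became 33 with DESeq2, 3 with limma-voom and 0 to 6 with a library left out. The median over all genes moved to -0.11 with Cufflinks values in both genotypes, and to -0.13 with a pseudocount of 0.1.

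With a library left out, values that did not pass changed sign. In the RGC-32 KO response these were Gfap (-0.48 to 0.013), Synm (-0.030 to 0.22) and Plec (-0.10 to 0.43). Between control genotypes they were Nes (-0.012 to 0.20), Synm (-0.15 to 0.11) and Plec (-0.38 to 0.14). For the interaction they were Gfap (-0.11 to 0.37) and Vim (-0.089 to 0.069). The cause was not tested.

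Groups share replicate numbers, but deviations of same-numbered libraries correlated at -0.34 between the WT groups, -0.35 between the RGC-32 KO groups, 0.49 between the controls and 0.25 between the TGF-β groups, so the numbers were not taken as pairs. With the replicate block the fall of Vim had adjusted p = 0.0104 for WT and 0.0115 for RGC-32 KO cells in edgeR, no call of the 5 genes changed, and DEG between genotypes numbered 2 in controls and 3 after TGF-β. With the numbers of the TGF-β libraries crossed in the replicate block, an alternative added after seeing the data, these were 10 and 36. That crossing follows the signs of the correlations above, so its higher numbers cannot show that the libraries were paired in this way. Depth limits the low genes most: Evpl had at most 27 counts and Hes5 at most 17 in a library.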
